A study of Mus musculus with 13 samples.

Results

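Binding of Myf6 was examined around 4 genes of the contractile apparatus, Acta1, Actc1, Des and Ckm. The members were all regions with a peak in fixed windows of the GRCm39 genome. The windows were chromosome 8 from 124568000 to 124672000 for Acta1, chromosome 2 from 113827000 to 113934000 for Actc1, chromosome 1 from 75287000 to 75395000 for Des, and chromosome 7 from 19095000 to 19206000 for Ckm. Peaks of the 12 HA and IgG lists that shared at least 1 bp were merged into 71864 regions, of which 27 lay in the windows. The Acta1 window held 8 of them, the Actc1 window 3, the Des window 11 and the Ckm window 5. The windows were set by position, without a threshold on any peak value, though members were chosen with earlier results of these data known.

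The cells were mouse embryonic fibroblasts with Pax7-CreERT2, Rosa26-LSL-tdTomato and CAG-rtTA3 alleles, in which the CAG promoter drives the doxycycline-dependent activator in most cell types. All of them, the uninduced ones included, had been transduced with a lentivirus whose TRE promoter drives HA-tagged mouse Myf6, and all spent 24 h in iMPC medium. They received no doxycycline (no dox), 2 µg/mL doxycycline (+Myf6), or doxycycline plus F/R/C, which stands for Forskolin at 5 µM, RepSox at 5 µM and CHIR99021 at 3 µM (+Myf6+F/R/C). CUT&RUN, in which an antibody directs a nuclease to cut the chromatin around its target, gave 2 libraries with an antibody against HA and 2 with a control IgG for each treatment, and 1 library for H3K27me3, a histone mark laid down by Polycomb complexes, from +Myf6+F/R/C cells. The title of that library calls it replicate 1, while its library name shares a prefix with the HA and IgG libraries of replicate 2. The labels do not say whether replicates were separate cultures, so spreads and p-values may reflect technical variation only. No RNA was measured, so fibroblast or muscle markers could not be checked.

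Depth, recovered from the peak lists as the mean number of fragments per 10 kb, was for HA replicates 1 and 2 at 42.4 and 30.6 with +Myf6, at 61.9 and 40.9 with +Myf6+F/R/C, and at 30.6 and 23.7 without doxycycline. It was 54.3 in the H3K27me3 library and between 8.25 and 22.7 in the 6 IgG libraries. A peak missing from a shallower list may lie under its threshold, so absence from a list is not absence of binding.

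Myf6, also called MRF4, belongs to the myogenic basic helix-loop-helix factors, which bind E-boxes (CANNTG) as dimers with E proteins and switch on muscle genes. Acta1 encodes skeletal α-actin and Actc1 cardiac α-actin, the thin-filament actins of striated muscle, the second of which is also made in embryonic skeletal muscle. Des encodes desmin, the intermediate filament protein that links sarcomeres to each other and to the membrane. Ckm encodes the muscle creatine kinase, which buffers ATP during contraction and whose upstream enhancer is a classical target of myogenic factors.

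The sequences before the start sites are shown because they hold the E-boxes next to each gene, the motif that Myf6 is known to bind. RefSeq (GRCm38.p6) held an entry for all 4 members, and the 250 bases before each start are printed 5′ to 3′ on the coding strand, with every CANNTG in capitals. Acta1 (chromosome 8) and Actc1 (chromosome 2) lie on the minus strand, Des (chromosome 1) and Ckm (chromosome 7) on the plus strand.
Acta1: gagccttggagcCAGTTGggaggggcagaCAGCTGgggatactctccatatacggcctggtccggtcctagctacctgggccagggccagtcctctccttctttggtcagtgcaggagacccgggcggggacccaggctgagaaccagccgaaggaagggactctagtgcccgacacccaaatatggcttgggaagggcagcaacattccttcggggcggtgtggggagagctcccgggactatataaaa
Actc1: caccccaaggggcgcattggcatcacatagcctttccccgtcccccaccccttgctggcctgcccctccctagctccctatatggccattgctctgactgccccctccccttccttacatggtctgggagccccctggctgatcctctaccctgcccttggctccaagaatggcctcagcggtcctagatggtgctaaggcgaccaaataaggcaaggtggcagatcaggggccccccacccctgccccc
Des: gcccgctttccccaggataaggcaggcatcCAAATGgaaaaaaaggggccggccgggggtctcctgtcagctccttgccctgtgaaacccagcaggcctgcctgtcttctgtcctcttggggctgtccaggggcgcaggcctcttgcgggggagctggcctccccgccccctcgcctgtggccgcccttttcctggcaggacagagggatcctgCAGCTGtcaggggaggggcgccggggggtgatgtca
Ckm: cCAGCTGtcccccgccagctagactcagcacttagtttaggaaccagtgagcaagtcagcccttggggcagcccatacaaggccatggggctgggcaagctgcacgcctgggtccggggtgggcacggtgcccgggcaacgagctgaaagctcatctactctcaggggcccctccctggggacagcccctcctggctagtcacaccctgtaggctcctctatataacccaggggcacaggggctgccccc

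CANNTG reads the same on both strands and was present 2 times upstream of Acta1, 2 times upstream of Des, once upstream of Ckm and not at all upstream of Actc1. Of 32851 promoters in the table, 66.2% held at least 1 in the same 250 bases, so its presence is common. CAGCTG, a form that myogenic factors bind well and a subset of CANNTG, occurred once each upstream of Acta1, Des and Ckm, against 13% of all promoters. It began 221 bases before the start of Acta1, 36 before that of Des and 249 before that of Ckm. The forms CAGGTG and CACCTG, which are each other's reverse complement, were in none of the 4 and in 17.2% of all promoters. The CArG box, the site of serum response factor that many actin genes carry, was found once upstream of Acta1 and once upstream of Actc1, at 73 and 47 bases before the start, and in 1.47% of all promoters. The MEF2 box was in none of the 4 and in 0.508% of all. These matches describe letters in one window and were not set against the peaks, because the promoter table and the peak lists use different builds. For the same reason no peak is assigned here to a promoter, exon or intron.

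Peak positions are given from the middle of each window. The windows exceed the RefSeq spans of the genes (3018 bp for Acta1, 5594 bp for Actc1, 8288 bp for Des and 10490 bp for Ckm) by 49.9 to 50.7 kb on either side if each gene is centred. Positive distances point towards higher coordinates. On the strands that RefSeq gives, these are the upstream part of the window for Acta1 and Actc1 and the downstream part for Des and Ckm. In GRCm38.p6 the protein-coding genes that overlap 50 kb to either side are Ccsap and Nup133 for Acta1, Gjd2 and Aqr for Actc1, Dnpep and Speg for Des, and Ppp1r13l, Ercc2, Klc3, Mark4 and Exoc3l2 for Ckm. A peak in a window may therefore belong to a neighbour. Speg, next to Des, is itself a gene of striated muscle.

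The 4 windows differed widely in the number of HA peaks after induction. Des had the most, with 5 and 6 peaks after +Myf6 and 11 and 6 after +Myf6+F/R/C. Acta1 had 5 and 4 with +Myf6 and 6 and 3 with +Myf6+F/R/C. Ckm had 0 and 5 with +Myf6 and 1 and 1 with +Myf6+F/R/C, so its replicates of +Myf6 disagreed. Actc1 had 2 and 0, and 1 and 0. Without doxycycline, HA libraries had 0 and 1 peaks at Acta1, 0 and 1 at Des, and none at Actc1 or Ckm. IgG peaks numbered 1 at Acta1 and 3 at Des over the 6 libraries, and 0 at Actc1 and Ckm. The whole lists differed in the same direction. They held 28436 to 38454 peaks in the induced HA libraries, 2179 and 4230 in the uninduced HA libraries, and 437 to 1724 in the IgG libraries.

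**Figure D1:**
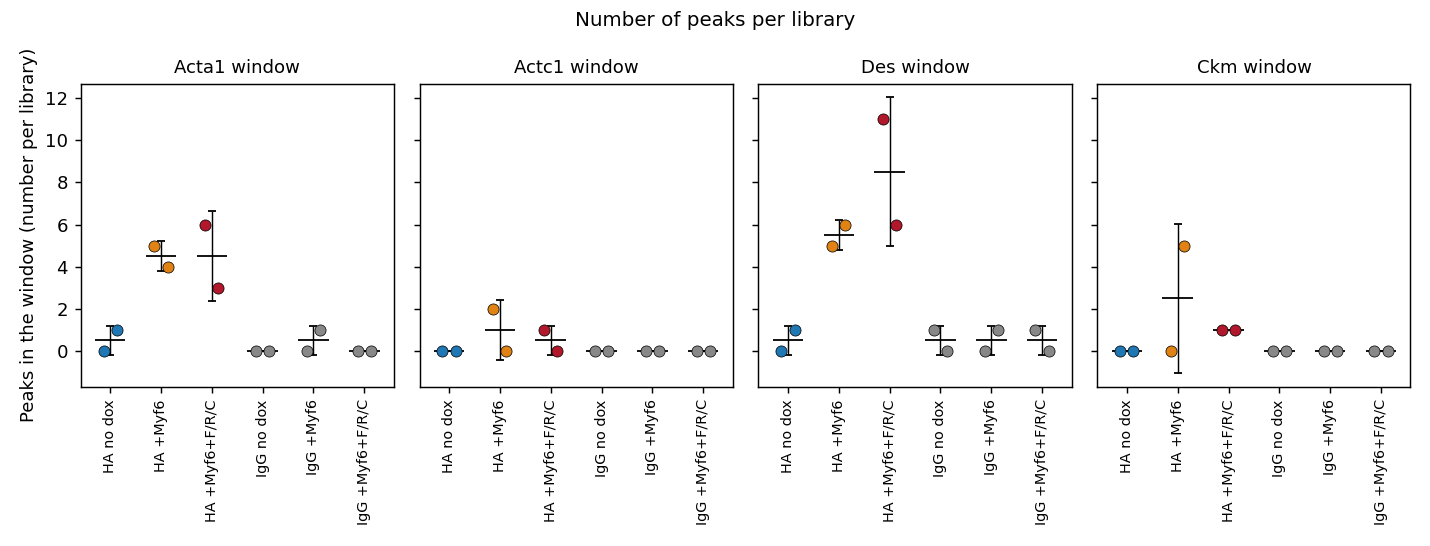
Number of peaks per library (y axis) in each of the 4 windows, by antibody and treatment (x axis). Points are libraries, horizontal bars means and whiskers ± SD (n = 2). The induced HA libraries lie above every uninduced HA and IgG library at Acta1 and Des, and overlap them at Actc1, and at Ckm because 1 +Myf6 library is at 0.

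Over the 4 windows together, the HA libraries held 13.5 ± 2.12 peaks with +Myf6, 14.5 ± 6.36 with +Myf6+F/R/C and 1.00 ± 1.41 without doxycycline (mean ± SD, n = 2 each). The libraries without doxycycline had 0 and 2, those with +Myf6 12 and 15. Replicate 2 of +Myf6 and replicate 1 without doxycycline had the same depth, 30.6 fragments per 10 kb, and held 15 and 0 peaks. Their whole lists held 35181 and 2179 peaks, so this contrast is not particular to the windows. Both +Myf6 libraries exceeded both uninduced ones at Acta1 and Des, 2 of 4 windows, a pattern seen in 36.1% of 27212 tiles of 100 kb that cover the genome. Both +Myf6+F/R/C libraries exceeded both uninduced ones at Acta1, Des and Ckm, 3 of 4 windows, against 39.5% of tiles. In no window did both +Myf6+F/R/C libraries exceed both +Myf6 libraries, which occurred in 6.53% of tiles. Tiles are slightly shorter than the windows and are not centred on genes, so these shares describe the genome and are no matched reference. With 2 libraries against 2 an exact permutation test cannot give a p under 0.33, so none of these differences could pass 0.05. Scaled down to the depth of the shallowest of the libraries compared, the excess over no dox was 8.5 peaks with +Myf6 (12.5 as deposited) and 4.5 with +Myf6+F/R/C (13.5 as deposited).

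HA peaks outnumbered IgG peaks of the induced cells at Acta1 by 4.50 ± 1.29 to 0.25 ± 0.50 and at Des by 7 ± 2.71 to 0.50 ± 0.58 (mean ± SD, n = 4 each). The HA library was higher in 4 of 4 pairs from the same nuclei at both genes (exact permutation p = 0.0286, two-sided, the smallest that 4 against 4 allows). Adjusted over the tiles by the Benjamini-Hochberg method, this exact permutation p became 0.0864 and did not pass 0.05. No window could get a lower adjusted value, since the unadjusted p is already the smallest possible. The adjustment therefore cannot decide the call at any window. An exact sign-flip test over the 4 pairs gave p = 0.125, the smallest that 4 pairs allow. It could not pass 0.05 whatever the data, so it cannot decide whether the call holds with the pairing. Tiles passed the unadjusted threshold with HA higher in 33.1% of cases, so 2 of 4 windows is close to the background. At Ckm the means were 1.75 ± 2.22 and 0 (exact permutation p = 0.143), higher in 3 of 4 pairs, and at Actc1 0.75 ± 0.96 and 0 (exact permutation p = 0.429), higher in 2 of 4 pairs. IgG libraries were the shallowest. Scaled to the depth of the shallowest IgG library, the difference was 0.25 at Acta1 and -0.25 at Des (exact permutation p = 1 for both). Pileups cut to that depth left few HA peaks above the threshold. This scaling therefore cannot decide whether HA and IgG differ in these windows.

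Regions with peaks in the pair of HA lists of a treatment, and without any in the 8 control lists (6 IgG and 2 HA without doxycycline), are called sites of that treatment. The windows held 6 sites of +Myf6, 8 of +Myf6+F/R/C and 5 of both, so 9 sites in all. With induced HA peaks held to a −log10 q of at least 5, these counts fell to 2 of +Myf6, 4 of +Myf6+F/R/C and 2 of both, and in windows trimmed by 40 kb on either side 5 of the 8 +Myf6+F/R/C sites were left. Among all merged regions, 17.5% were sites of +Myf6, 21% of +Myf6+F/R/C and 10.7% of both. The 9 sites were 3 at Acta1, 5 at Des and 1 at Ckm, and Actc1 had none. At least 1 site was thus present in 3 of 4 windows, against 39.2% of tiles. As many sites as at Des were found in 1.21% of tiles, and as many as at Acta1 in 9.23%. Of the 27 regions, all with an induced peak, 16 appeared in only 1 of the 4 induced lists. In the genome these were 36439 of the 69222 regions with an induced peak.

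**Figure D2:**
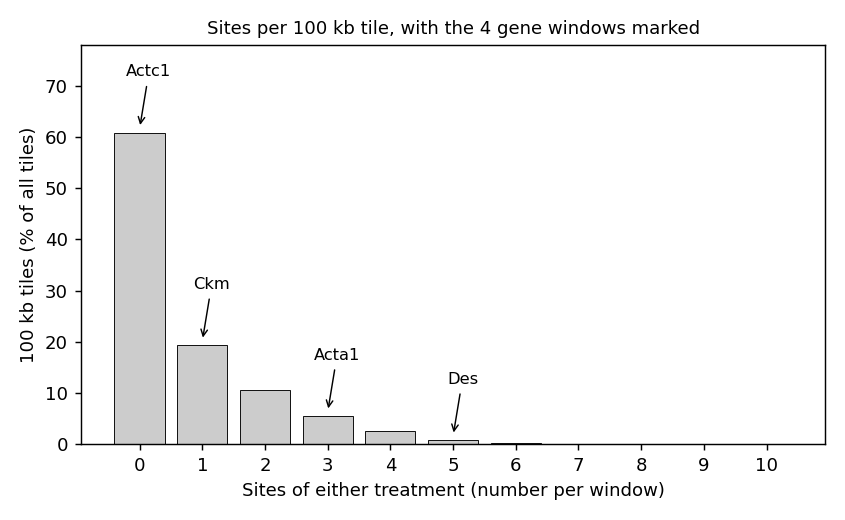
Share of 27212 tiles of 100 kb (y axis, %) by their number of sites of either treatment (x axis), with arrows at the counts of the 4 gene windows. Actc1 falls with the 60.8% of tiles without a site and Des, with 5 sites, in a class that holds 0.794% of tiles.

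**Figure D3:**
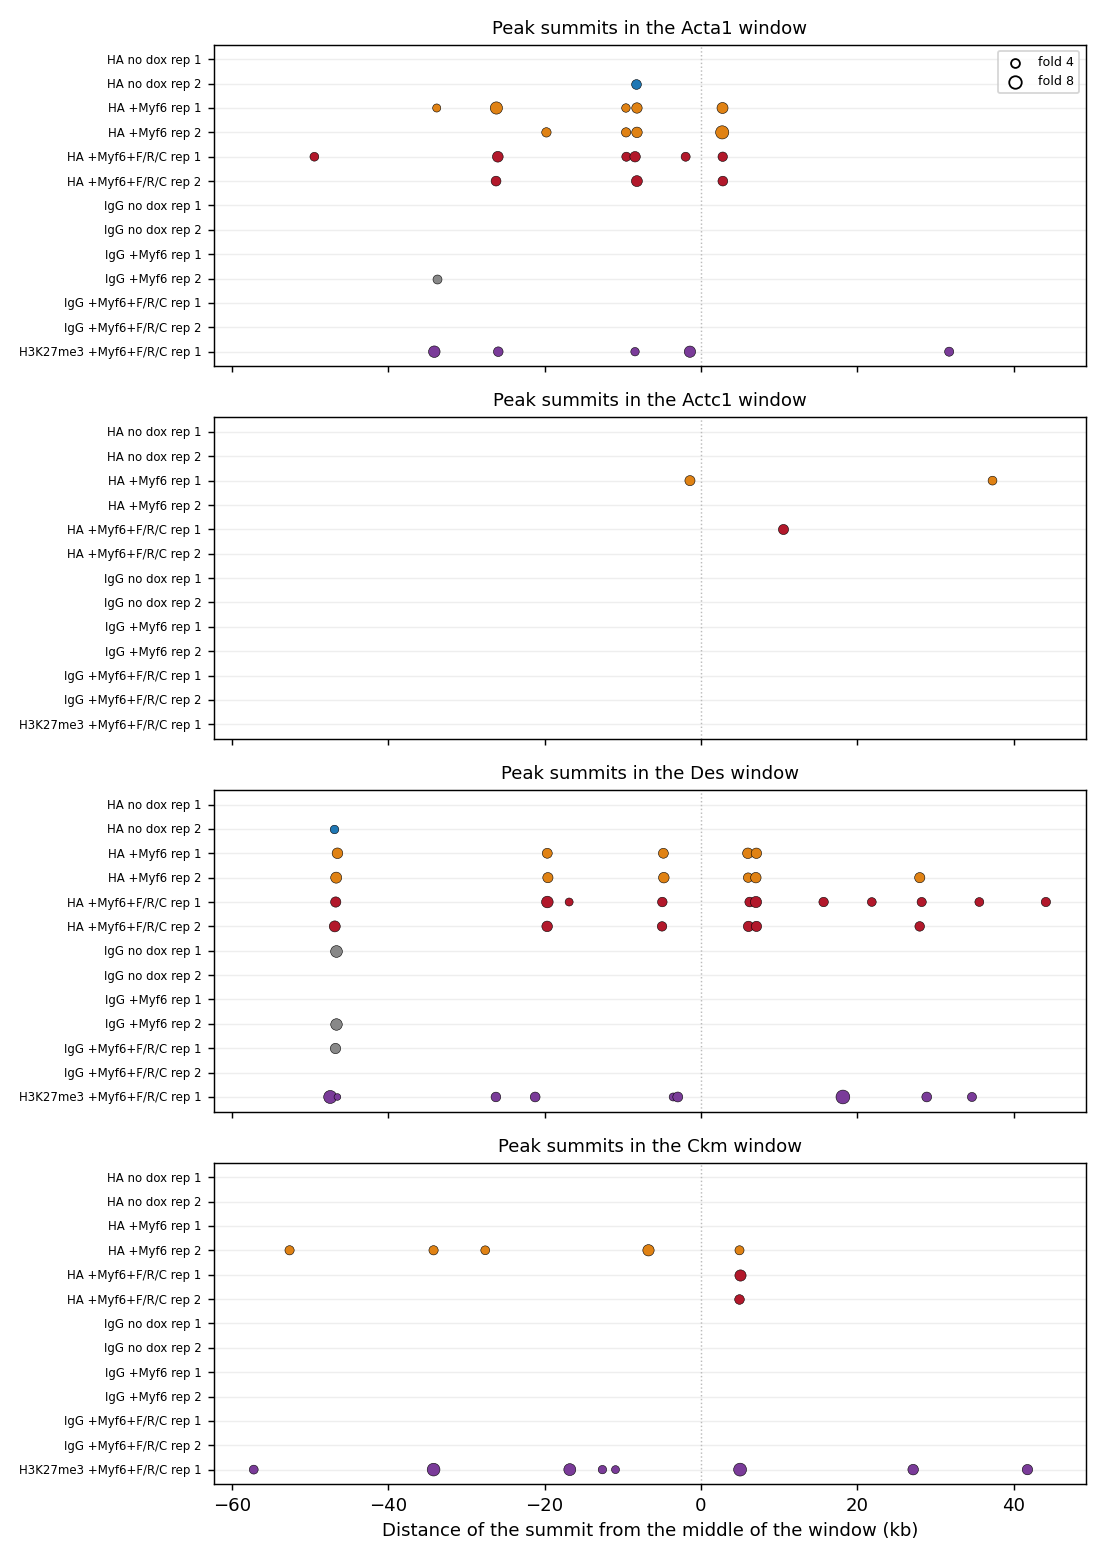
Peak summits (points) in the 4 windows by distance from the middle of the window (x axis, kb) for each of the 13 libraries (rows), with point area proportional to the authors' fold enrichment. In the Des window 5 columns of points run through all 4 induced HA libraries, in the Acta1 window 2, and in the Actc1 and Ckm windows none.

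Acta1 had 4 regions with a peak in both libraries of a treatment. The nearest to the middle lay on chromosome 8 at 124622664 to 124623056, a site of both treatments, with summits 2.73 to 2.81 kb from the middle, in the upstream part of the window. The fold enrichments, which are the authors' and relate a summit to the local background of its own library, were 6.23 and 8.87 with +Myf6 and 4.56 and 4.87 with +Myf6+F/R/C. In +Myf6 replicate 2 the fold was higher than that of 97.6% of the list. The summit pileups, the number of fragments over the summit as recovered from fold and p-value, were 23, 27, 20 and 15 in the same order. Divided by the mean pileup of the library, they were 33.7 and 54.9 times the mean with +Myf6 and 19.7 and 21.3 with +Myf6+F/R/C, so both +Myf6 libraries were higher. The means were 44.3 ± 15.0 and 20.5 ± 1.15 (SD, n = 2 each), a ratio of 2.16 (exact permutation p = 0.33, the smallest possible). No control list had a peak there, and the nearest H3K27me3 peak was 3949 bp away.

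The strongest Acta1 region by depth-scaled pileup in +Myf6+F/R/C was also in 1 of the 2 HA lists without doxycycline, not in that of replicate 1. It lay at 124611451 to 124611964, 8.24 kb below the middle on average. Its folds were 5.55 and 5.67 with +Myf6 and 5.61 and 6.14 with +Myf6+F/R/C, with pileups of 21, 19, 31 and 25 fragments. These were 30.7 and 38.6 times the library mean with +Myf6 and 30.5 and 35.5 times with +Myf6+F/R/C, so the treatments overlapped. The HA library of replicate 2 without doxycycline had a peak there as well, with a fold of 4.89 and 7 fragments, 27.4 times its mean, and by that peak the region is no site. An H3K27me3 peak of fold 3.64 overlapped it.

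The other 2 Acta1 regions were each a site of only one treatment. The region at 124610120 to 124610574, 9.56 kb below the middle, had folds of 3.71 and 4.41 with +Myf6 and 4.23 in +Myf6+F/R/C replicate 1, where its pileup of 23 fragments was 22.6 times the library mean, between the 20.5 and 30.5 of the +Myf6 libraries. It was not in the list of +Myf6+F/R/C replicate 2. The region at 124593710 to 124594175, 26.1 kb below the middle, had folds of 5.90 and 4.93 with +Myf6+F/R/C and a higher one, 7.65, in +Myf6 replicate 1, but no peak in +Myf6 replicate 2. Neither is therefore shown to be particular to a treatment. An H3K27me3 peak of fold 4.75 overlapped the second region. The remaining 4 regions of the window were each in 1 induced list, with folds of 3.35 to 4.51, and the weakest of them also held the only IgG peak, in +Myf6 replicate 2 with a fold of 4.13. An H3K27me3 peak of fold 6.82 overlapped that weakest region.

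Actc1 had no peak in both libraries of any treatment. Its 3 regions lay on chromosome 2 at 113879018 to 113879248, 113890693 to 113891106 and 113917750 to 113918023. The outer ones were in +Myf6 replicate 1 only, with folds of 5.21 and 3.97 and pileups of 9 and 7 fragments. The second was in +Myf6+F/R/C replicate 1 only, with a fold of 5.27 and 15 fragments. These 2 libraries were the deepest of their treatments. The peak at 113879018 was the nearest to the middle, 1.40 kb below it. No control list and no H3K27me3 peak fell in the window, and the nearest H3K27me3 peak to any of the 3 was 86792 bp away. Of all tiles, 49.4% held at least as many induced HA peaks as the 3 of Actc1. By the same measure the share was 30.8% for Ckm, 5.39% for Acta1 and 0.503% for Des.

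Des had 6 regions with a peak in both libraries of a treatment, 5 of them in all 4 induced lists. The pair nearest to the middle in the downstream part lay on chromosome 1 at 75346933 to 75347380 and 75347826 to 75348392, with mean summits 6.10 and 7.08 kb from the middle. At the nearer, folds were 5.67 and 4.61 with +Myf6 and 4.79 and 5.50 with +Myf6+F/R/C, from 16, 10, 21 and 15 fragments. At the farther, they were 5.55 and 5.64 with +Myf6 and 6.42 and 5.40 with +Myf6+F/R/C, from 15, 13, 29 and 15 fragments. Summits of the 4 libraries fell within 81 bp of each other at the farther region and within 236 bp at the nearer. Both were sites of both treatments, and the depth-scaled means of the treatments differed by less than the SD between the +Myf6 replicates. They were 21.9 ± 2.19 and 21.0 ± 0.45 times the library mean at the nearer and 24.2 ± 3.16 and 24.9 ± 5.12 at the farther (+Myf6 and +Myf6+F/R/C, SD, n = 2 each).

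In the upstream part of the Des window, 2 more sites were shared by both treatments. The region at 75335720 to 75336760, 4.86 kb below the middle, had folds of 5.03 and 5.72 with +Myf6 and 4.67 and 4.59 with +Myf6+F/R/C. Its pileups of 11, 12, 18 and 13 fragments were 16.1, 24.4, 17.7 and 18.5 times the library mean, so the treatments overlapped. The nearest H3K27me3 peak was 673 bp from it. The region at 75320981 to 75321800, 19.6 kb below the middle, had the highest single HA fold of the window, 6.91 in +Myf6+F/R/C replicate 1, where 34 fragments lay over the summit. The folds of the other 3 libraries were 5.05 and 5.33 with +Myf6 and 5.74 in +Myf6+F/R/C replicate 2. Scaled by depth the values were 23.4 and 20.3 with +Myf6 and 33.5 and 22.7 with +Myf6+F/R/C, which overlap, with a ratio of the means of 1.28 (exact permutation p = 0.667, n = 2 each). The 4 summits lay within 94 bp.

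The Des window also held a region that was cut with every kind of antibody. It lay at 75293884 to 75294959, near the lower edge of the window and 46.7 kb from the middle. Folds were 5.75 and 6.21 with +Myf6 and 5.40 and 6.17 with +Myf6+F/R/C. The IgG libraries without doxycycline (replicate 1), with +Myf6 (replicate 2) and with +Myf6+F/R/C (replicate 1) had folds of 7.05, 6.80 and 5.45 there, and the HA library of replicate 2 without doxycycline 3.72. It was overlapped by 2 H3K27me3 peaks. The stronger, of fold 8.72, had its summit 47.4 kb below the middle, outside the region, and the weaker, of fold 2.28, had its summit 46.5 kb below the middle, among those of the HA peaks. In relation to the library mean, the 3 IgG pileups were 35.3 to 37.7 and the 4 induced HA pileups 18.7 to 28.5, so every IgG value was above every induced HA value. The median over all peaks of a list was also higher in those IgG lists (33.5 to 68.0) than in the induced HA lists (12.8 to 18.3), so the 2 kinds of list are not on one footing. The last of the 6 regions, at 75368897 to 75369299, was a site of +Myf6+F/R/C, with folds of 4.33 and 4.71, and was also in the list of +Myf6 replicate 2, with 5.33. The remaining 5 regions were all in +Myf6+F/R/C replicate 1 only, the deepest library, with folds of 3.29 to 4.57.

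Ckm had 1 site, on chromosome 7 at 19155294 to 19155666, with summits 4.88 to 5.01 kb from the middle, in the downstream part of the window. It was a site of +Myf6+F/R/C, with folds of 6.45 and 4.75 from 12 and 8 fragments, and +Myf6 replicate 2 had a peak there with a fold of 4.22 from 6 fragments. The depth-scaled pileups of these 3 libraries were close, at 11.8, 11.4 and 12.2 times the library mean. An H3K27me3 peak of fold 8.51 had its summit 5.02 kb from the middle, next to those of the HA peaks. The remaining 4 regions were in +Myf6 replicate 2 only. The strongest of them, at 19143731 to 19144037, lay 6.70 kb below the middle, in the upstream part, with a fold of 6.56 from 12 fragments, higher than 83.5% of its list. The 3 other induced HA libraries, although deeper, had no peak there. The other regions had folds of 4.02 to 4.39, and 1 of them, at 19115881 to 19116377, overlapped an H3K27me3 peak of fold 8.28.

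**Figure D4:**
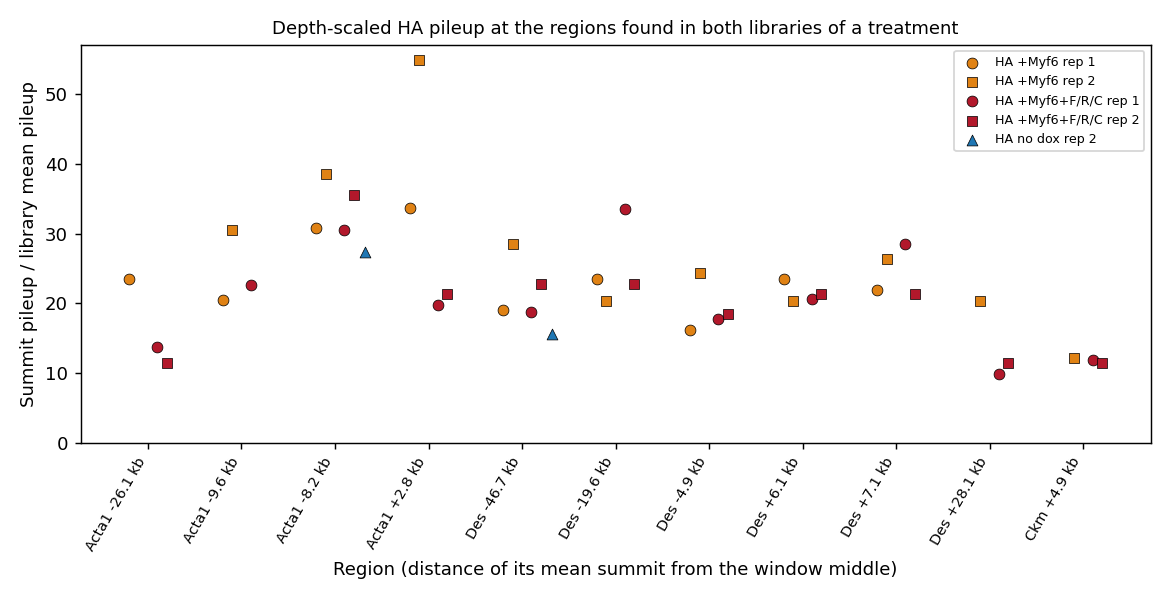
HA summit pileup divided by the library's mean pileup (y axis) at the 11 regions found in both libraries of an induced treatment (x axis, with the distance of the mean summit from the window middle). Circles and squares are replicates 1 and 2 of the induced libraries, triangles HA replicate 2 without doxycycline, and a missing point means no peak in that list. Both +Myf6 libraries stand above both +Myf6+F/R/C libraries at Acta1 +2.8 kb, and the treatments overlap at the other 6 regions with 4 induced points.

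Across the 7 regions found in all 4 induced lists, the depth-scaled pileup was higher in both +Myf6 libraries at 1, the Acta1 region at 2.78 kb, and in both +Myf6+F/R/C libraries at none. The same patterns occurred at 27.2% and 11.7% of the 10625 such regions in the genome, so 1 and 0 of 7 are no result about these genes. Of the 11 regions in both libraries of a treatment, 2 had a control peak, against 16.6% in the genome.

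H3K27me3 peaks were present in 3 of the 4 windows, with 9 at Des, 8 at Ckm (1 of them across the lower edge of the window), 5 at Acta1 and 0 at Actc1. They covered 5.41% of the Ckm window, 4.13% of the Des window and 3.43% of the Acta1 window, against 0.971% of all tiles. As many peaks as at Des were found in 0.900% of tiles, as at Ckm in 1.51% and as at Acta1 in 7.34%. Close neighbours count separately, such as the Des peaks at 75292907 to 75294194 and 75294364 to 75294609. The number of narrow peaks may therefore exceed that of separate marked stretches. Pileups of the Des peaks ranged from 7 to 83 fragments. The highest folds were 9.70 at Des, 18.2 kb above the middle, 8.51 at Ckm and 6.82 at Acta1, 34.1 kb below the middle. An H3K27me3 peak overlapped 2 of the 9 sites, 1 at Acta1 and the site of Ckm, and none of the 5 sites at Des, while 31.2% of all sites of either treatment overlapped one. The 2 became 0 with a −log10 q of at least 5, 1 in trimmed windows and 4 without the control filter. The 2 regions of the named 11 that also had a control peak both overlapped the mark. The share of such regions with the mark in the genome was not counted, so this is no result about them. The H3K27me3 library has no replicate, and the mark was not measured without the compounds, so its change with treatment was not tested.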

How the data were processed

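CUT&RUN libraries (13) had 1 deposited list of narrow peaks each, so replicates were not pooled. Per the submitters' processing notes, MACS2, deepTools and DiffBind were used with build GRCm39. No aligner, version or setting is named in these notes, and how the Drosophila spike-in nuclei were used is not stated. Each line as deposited by the authors holds an interval, a fold enrichment (ratio to the local background), p- and q-values as −log10, and the summit's offset. The lowest −log10 q was 1.30.

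Peaks on chromosomes 1 to 19, X and Y were used. The pileup at each summit (k, a whole number) and its expected value (λ) were recovered from fold = (k + 1)/(λ + 1) and a Poisson tail, with a difference from the deposited −log10 p of no more than 0.002 in 99.9% or more of each list (Python 3.11.15, scipy 1.17.1, tested on simulated data). The lowest λ, taken as the genome-wide mean, gave the depth after division by the narrowest peak width, taken as the fragment length. In scaling, k (rounded down) and λ were multiplied by the ratio of depths, without random draws, and peaks below the lowest −log10 p of the shallowest list were dropped. Lists were compared by overlap (at least 1 bp), and counts by exact permutation, two-sided. HA and IgG libraries of one treatment and number are pairs, because the labels' protocols describe splitting each nuclei sample between the antibodies.

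All regions of the windows in both HA lists of a treatment, or in 2 or more control lists, were named. Regions in 1 list were named only at Actc1 and for the strongest and an H3K27me3-marked one at Ckm, after their values were seen. Members, lists and tests were chosen with earlier results of these data known, and the depth-scaled pileup was added after the data were examined. Planned gene windows, gene-relative positions and counts at related actin, intermediate filament and creatine kinase genes needed gene positions in GRCm39 and were not made. Tiles of 100 kb took the place of gene windows.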

Additional observations from a re-analysis of the deposited data

How the results depend on the processing

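The excess of HA over IgG peaks at Acta1 kept its direction and unadjusted call with −log10 q of at least 5 (3) or 10 (1). It also kept them with windows trimmed by 40 kb on either side, which leaves the middle with about 10 kb around the gene (3). At 10 the +Myf6 peaks were at the region from 124622664. Those of +Myf6+F/R/C were at the region from 124611451, which is no site. At Des the differences at 5, at 10 and in trimmed windows were 3.75, 0.5 (exact permutation p = 1) and 3, so the call was lost at 10. Scaled to the shallowest library, which left few peaks to compare, the difference was 0.25 at Acta1, and -0.25 at Des, where the sign turned. The cause was not tested. As pairs (the replicate block) the differences stayed at 4.25 and 6.5 with exact sign flips p = 0.125, the smallest that these pairs allow. Without any 1 library they were 3.75 to 4.75 at Acta1 and 5.17 to 7.17 at Des, where 3 against 4 cannot go under p = 0.0571 (exact permutation). They were 0.33 to 1 at Actc1 and 0.667 to 2.33 at Ckm.

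Against no dox, the 4 windows gained 12.5 peaks with +Myf6 (11 to 14 without any 1 library) and 13.5 with +Myf6+F/R/C (9 to 18). With −log10 q of at least 5 the +Myf6 gain was 6.5, at 10 it was 1 and with +Myf6+F/R/C 2, scaled by depth 8.5 and 4.5, and in trimmed windows 7 for both. Between +Myf6+F/R/C and +Myf6 the difference of 1 became -1.5 when scaled by depth. It ranged from -3.5 to 5.5 without any 1 library, at -3.5 without +Myf6+F/R/C replicate 1 and -0.5 without +Myf6 replicate 1. The replicate block left these 3 differences at 12.5, 13.5 and 1. Whether a number marks a shared culture across treatments is not stated.

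Sites of +Myf6, of +Myf6+F/R/C, of both and with H3K27me3 numbered 6, 8, 5 and 2. With −log10 q of at least 5 in the induced lists they were 2, 4, 2 and 0. In trimmed windows 5 sites of +Myf6+F/R/C and 1 with H3K27me3 were left. Without a control filter 4 sites had the mark. The other alternatives left these counts within 1.5 times. With fold in place of depth-scaled pileup, chosen after seeing the data, the counts of regions higher in both libraries of +Myf6 or of +Myf6+F/R/C went from 1 and 0 to 2 and 1. The genome shares by fold are not given here, so these counts are no result about the 4 genes. The 16 regions in 1 induced list rest on 5 to 20 fragments. The 5 of them at Des come from the deepest induced HA library and the 4 at Ckm from the shallowest. Those at Acta1 and Actc1 come from both +Myf6 libraries and from +Myf6+F/R/C replicate 1. The part of depth in these 16 regions was not tested.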
